A study of Mus musculus with 80 samples.

Results

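The injected hippocampus of mice given kainate was compared with that of mice given saline, 7 days after surgery, across all genes measured. The comparison takes 12 of the 80 arrays of the series: the 8 arrays labelled IL, KA and day 7 and the 4 labelled IL, sham and day 7. They were chosen by these labels, not by their values. All animals were males of the strain C57Bl/6J, aged 12 weeks at surgery. KA animals received 50 nl of 20 mM kainic acid in saline into the right dorsal hippocampus through a burr hole, and sham animals received 50 nl of saline by the same route, so both groups carry the surgery, the needle track and the injected volume. Each array was made from the whole hippocampus of 1 animal on the injected side (IL), and the hippocampus of the other side (CL) of the same animal was put on another array. The labels used here do not say which animals had seizures. Arrays are called KA 1 to KA 8 and sham 1 to sham 4 after their replicate numbers.

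Kainic acid is an agonist of kainate-type glutamate receptors. A focal injection into the dorsal hippocampus overexcites the neurons near the needle, is known to kill many pyramidal cells and interneurons, and is widely used to model mesial temporal lobe epilepsy. Microglia, the resident macrophages of the brain, respond to dying cells by dividing, taking up debris and releasing chemokines and complement. Astrocytes respond by enlarging their intermediate filament skeleton and secreting acute-phase proteins, a state called reactive. Interferon signalling, antigen presentation and lysosomal digestion are further arms of the same glial response, while surviving granule cells of the dentate gyrus are known to change their neuropeptides and growth factors.

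The arrays are Illumina BeadChips, which measure messenger RNA with bead-bound probes, and levels are given as normalised log2 intensities. Differences are log2 differences, KA minus sham, with the standard error of limma, a linear model fitted across all genes, and p-values carry the Benjamini-Hochberg adjustment for all 11381 genes tested. Genes with an adjusted p under 0.05 are said to have risen or fallen. Between 61.7% and 66.9% of probes were detected on these 12 arrays. Rbfox3, a splicing factor of the nuclei of neurons, read from 12.12 to 12.99 in KA and from 12.72 to 12.90 in sham arrays, and Mbp, a protein of myelin, from 14.12 to 14.39 and from 13.99 to 14.18, so neuronal and myelin RNA were present on all 12 arrays. Mbp has another probe with the opposite sign of difference.

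Of the 11381 genes, 850 rose (7.47%) and 345 fell (3.03%). The median difference over all genes was -0.04. The rises were larger than the falls: 90 genes rose by more than 4-fold, while the largest fall was by 1.20 on the log2 scale and 9 genes fell by more than 2-fold. With each array scaled to its median in place of quantile normalisation, 637 genes rose and 142 fell, and the median over all genes moved to -0.10. The number that fell rested on single sham arrays: it was 182 without sham 1, 173 without sham 3 and 171 without sham 4, when 724, 685 and 664 rose, and with slide as a block 978 rose and 546 fell. At least 7 of 8 KA arrays lay above every sham array for 1118 genes (9.82%) and below every sham array for 995 (8.74%).

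One KA array stood apart from the others. The 850 genes that rose lay at a median of 0.94 to 1.26 log2 units above the sham mean on KA 1 to KA 7, and at 0.08 on KA 8. Over the 345 genes that fell, the median was -0.72 to -0.49 on KA 1 to KA 7 and -0.20 on KA 8. These values describe genes chosen with KA 8 in the fit. KA 8 had 62.4% of probes detected, within the range of the other arrays. Without KA 8, 996 genes rose (8.75%) and 495 fell (4.35%); 1191 genes were called with the same sign both ways, 4 only with all arrays and 300 only without KA 8. Each gene below is given with KA 8 in its value (n = 8 KA and 4 sham arrays), and counts over the lists that differ without KA 8 are given beside. Every list count is to be read beside the shares over all genes, 7.47% rising and 3.03% falling.

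**Figure D1:**
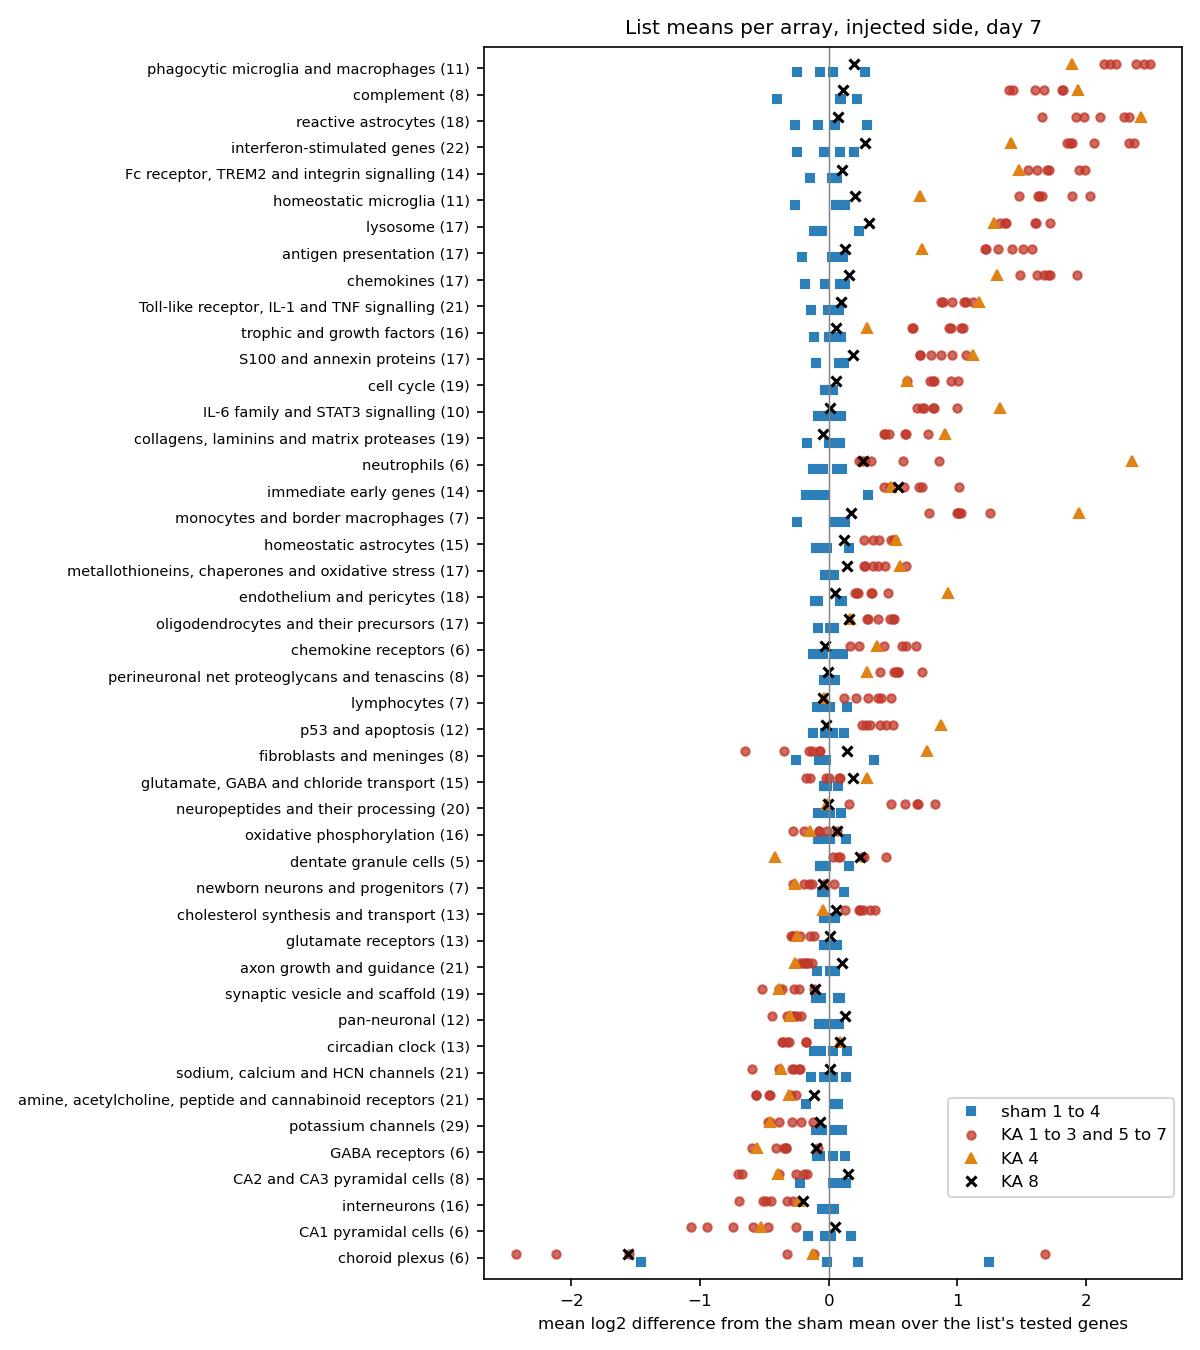
Mean log2 difference from the sham mean over the tested genes of each list (number in brackets), 1 point per array of the injected side at day 7. Blue squares are sham 1 to 4, red circles KA 1 to 3 and 5 to 7, the orange triangle KA 4 and the black cross KA 8. For the phagocytic microglia list KA 1 to 7 lie between 1.89 and 2.50, and KA 8 lies at 0.19, inside the sham range.

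Genes of microglia and their receptors rose together. Of the 11 genes of phagocytic microglia and macrophages tested, 9 rose and 0 fell, with a median difference of 2.09 against -0.04 over all genes and a background of 7.47% rising. Of the 11 genes of homeostatic microglia 10 rose and 0 fell (median 1.30), and of the 14 of Fc receptor, TREM2 and integrin signalling 12 rose and 0 fell (median 1.63). The counts were the same without KA 8. Whether more microglia or more RNA per microglial cell raised these values cannot be told apart in RNA of whole tissue, and the same holds for every cell type below.

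Cst7 encodes cystatin F, an inhibitor of lysosomal proteases made by phagocytic microglia. Its level was 4.99, 5.28, 4.92 and 4.79 on sham 1 to 4, and on the KA arrays 5.36 at the lowest, 8.86 at the median and 9.18 at the highest. KA 8 was the lowest KA array, and all 8 KA arrays were above every sham array, KA 8 by a narrow margin. The difference was 3.34 ± 0.45 (limma adjusted p = 2.67e-08). Trem2, a receptor for lipids and cell debris, read 8.53, 8.66, 8.50 and 7.64 in sham and 8.70, 11.16 and 11.65 (lowest, median, highest) in KA, a difference of 2.59 ± 0.31. Fcer1g, the signalling chain shared by Fc receptors, read 9.75, 9.72, 9.62 and 9.36 in sham and 9.89, 12.25 and 12.72 in KA. For both genes the lowest KA value was that of KA 8 and still lay above the highest sham value. Ptpn6, the phosphatase SHP-1 that damps these receptors, rose by 2.45 ± 0.33, and Fcgr2b, the inhibitory Fc receptor, by 2.60 ± 0.31.

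The genes that mark resting microglia rose as well, by less. Fcrls, an Fc-receptor-like surface protein of microglia, read 7.62, 8.12, 7.91 and 7.50 in sham and 8.25, 10.31 and 11.06 in KA, a difference of 2.28 ± 0.32. Olfml3, a secreted matrix protein of microglia, rose by 2.05 ± 0.28 and Aif1, the actin-binding protein Iba1, by 2.02 ± 0.32. Cx3cr1, the receptor through which microglia sense neuronal fractalkine, read 7.89, 6.84, 7.61 and 6.84 in sham and 6.96 at the lowest and 9.19 at the median in KA, and 6 of 8 KA arrays lay above every sham array. KA 4 (7.82) and KA 8 (6.96) overlapped with sham. Its difference of 1.49 ± 0.42 (limma adjusted p = 0.0117) was the smallest of these 4.

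Receptors that sense microbial products and cell damage rose in part. Of the 21 genes of Toll-like receptor, IL-1 and TNF signalling tested, 12 rose and 0 fell (13 rose without KA 8), with a median of 0.70 that becomes 0.44 when genes not detected on any sham array are set at their lower bound. Tlr2, the receptor for bacterial lipopeptides, had the lowest adjusted p of all genes in the table: sham arrays read 5.79, 6.05, 5.93 and 4.99, KA 8 read 6.16 and KA 1 to KA 7 read from 9.12 to 9.94. All 8 KA arrays were above every sham array, and the difference was 3.43 ± 0.37 (limma adjusted p = 9.32e-10). Tlr7, the endosomal receptor for single-stranded RNA, rose by 2.39 ± 0.32. Tlr13, which senses bacterial ribosomal RNA in mice, was not detected on any sham array and was at least 3.4-fold higher in KA (limma adjusted p = 1.01e-07; means 6.85 and 4.86), with KA 8 below every sham array. Cd14, the co-receptor of TLR4, rose by 1.86 ± 0.33 and was highest on KA 4 at 9.64.

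Complement components are opsonins that tag material for uptake. Of the 8 complement genes tested 5 rose and 0 fell, with and without KA 8 (median 1.98). C4b, the component that C1s cleaves, read 9.25, 9.46, 8.98 and 8.63 in sham and 9.53, 11.71 and 11.84 in KA, a difference of 2.31 ± 0.33. C1qb and C1qc, chains of the recognition molecule C1q, rose by 2.30 ± 0.30 and 2.41 ± 0.29. Without KA 8 the sham and KA arrays of C4b were far apart, the lowest of KA 1 to KA 7 being 11.32 against a highest sham value of 9.46.

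Chemokines draw leukocytes and microglia along a gradient. Of 17 tested 10 rose and 0 fell (median 1.14, or 0.45 with the 6 that were not detected on any sham array at their bound). Of 6 chemokine receptors 1 rose, Cx3cr1, or 2 without KA 8, and 1 is a count near the 7.47% rising over all genes. Ccl4, the chemokine MIP-1 beta, read 5.96, 5.98, 5.65 and 5.22 in sham and 6.10, 9.96 and 10.42 in KA. The 2 groups did not overlap, although KA 8 exceeded the highest sham array by little, and the difference was 3.73 ± 0.46 (limma adjusted p = 3.63e-09). Ccl3, the related MIP-1 alpha, rose by 3.33 ± 0.41, and Ccl12, a mouse ligand of CCR2, by 3.56 ± 0.46; on KA 8 both lay inside the sham range.

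Genes induced by interferon rose almost as a block. Of the 22 tested 19 rose and 0 fell, with and without KA 8, and the median was 1.89 (1.62 with genes not detected in sham at their bound). Ifi27l2a, a small mitochondrial protein induced by interferon, read 5.71, 6.70, 4.87 and 5.34 in sham and 6.87, 9.74 and 10.98 in KA. Its lowest KA value, on KA 8, was just above the highest sham value, on sham 2, and the difference was 3.91 ± 0.49 (limma adjusted p = 5.72e-09). Oasl2, of the family that senses double-stranded RNA, read 6.04, 6.80, 5.67 and 5.45 in sham and 6.99, 9.22 and 10.29 in KA, a difference of 3.08 ± 0.44. Rsad2, the antiviral enzyme viperin, rose by 2.86 ± 0.36 and read 6.05 on KA 8, inside the sham range.

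The interferon-stimulated response element, a stretch of letters known from promoters of genes induced by interferon, was looked for in the 250 bases before the start of each gene, in the first promoter that RefSeq lists for the gene (GRCm38.p6). The core searched was GAAANNGAA on either strand. Of the 19 genes that rose 15 had a promoter in the table, and 8 of these held the core, against 7.16% of all 27025 promoters and 6.22% of the promoters of 9182 tested genes. The cores of a cyclic AMP response element (TGACGTCA) and of a kappa B site (GGGANTTTC) were found in 1.62% and 0.977% of all promoters; they were in 0 of 2 promoters of the immediate early genes that rose and in 1 of 7 of the chemokines that rose. A match is a description of letters and not a binding site. The 4 genes with the largest rise among those that held the interferon core are shown, chosen after their values were seen, because they let the shared letters be compared; the core, or its reverse complement, stands in capitals and each sequence runs 5′ to 3′ in the direction of the gene up to the base before its start.
Rsad2, chr12:26456453-26456702, - strand: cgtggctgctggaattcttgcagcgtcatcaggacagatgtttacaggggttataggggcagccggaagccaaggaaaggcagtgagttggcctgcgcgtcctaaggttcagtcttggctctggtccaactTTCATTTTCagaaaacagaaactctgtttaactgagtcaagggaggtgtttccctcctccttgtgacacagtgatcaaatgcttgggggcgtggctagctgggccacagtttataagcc
Ifit3, chr19:34583279-34583528, + strand: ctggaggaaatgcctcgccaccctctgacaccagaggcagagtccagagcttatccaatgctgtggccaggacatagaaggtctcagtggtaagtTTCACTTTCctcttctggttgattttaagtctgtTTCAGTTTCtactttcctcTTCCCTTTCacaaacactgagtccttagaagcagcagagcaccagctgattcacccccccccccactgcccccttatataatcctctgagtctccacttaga
Gbp2, chr3:142620413-142620662, + strand: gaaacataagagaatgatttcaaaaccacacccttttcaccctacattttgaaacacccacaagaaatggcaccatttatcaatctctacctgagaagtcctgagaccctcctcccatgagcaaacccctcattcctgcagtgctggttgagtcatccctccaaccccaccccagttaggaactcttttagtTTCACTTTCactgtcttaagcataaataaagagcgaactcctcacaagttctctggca
Isg15, chr4:156200819-156201068, - strand: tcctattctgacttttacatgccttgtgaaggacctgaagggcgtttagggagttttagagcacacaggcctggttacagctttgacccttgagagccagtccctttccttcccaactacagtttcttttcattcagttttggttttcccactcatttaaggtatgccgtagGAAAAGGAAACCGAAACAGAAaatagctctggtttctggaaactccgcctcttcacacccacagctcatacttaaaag

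In Ifit3 the core stands 3 times, and in Isg15 3 overlapping copies form 1 stretch. In Rsad2 and Gbp2 it stands once. Its copy nearest to the start begins 119 bases before the start in Rsad2, 102 in Ifit3, 58 in Gbp2 and 66 in Isg15. The differences of these genes were 2.86, 2.60, 2.44 and 2.16. Oasl2, whose difference was larger, held no copy of these letters in this window.

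Antigen presentation genes rose in both arms of the system. Of 17 tested 13 rose and 0 fell (median 1.18, 1.05 with bounds), and 16 rose without KA 8. Psmb9, a subunit of the immunoproteasome that cuts peptides for class I molecules, read 6.13, 6.32, 5.84 and 5.13 in sham and 6.80, 7.66 and 8.39 in KA, with no overlap and a difference of 1.78 ± 0.25. H2-Ab1, a class II chain, read 6.61, 6.23, 6.68 and 6.14 in sham and 6.32, 8.54 and 9.25 in KA, and 7 of 8 KA arrays lay above sham, KA 8 within it. Its difference was 1.81 ± 0.48 (limma adjusted p = 0.00588), and Cd74, the class II invariant chain, rose by 1.70 ± 0.48. On the other side of the animal of KA 8, H2-Ab1 read 8.11, well above the reading of 6.32 on the injected side of that animal.

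Lysosome genes, which encode the enzymes that digest engulfed material, rose in 15 of 17 tested and fell in 0, with and without KA 8 (median 1.21). Grn, the lysosomal and secreted protein progranulin, read 10.09, 10.17, 9.998 and 9.76 in sham and 9.94, 12.19 and 12.68 in KA, a difference of 1.95 ± 0.23 (limma adjusted p = 1.19e-09). KA 8 lay inside the sham range, and the other 7 KA arrays were at 11.87 or above. Ctsz and Ctsh, lysosomal cathepsins, rose by 2.19 ± 0.31 and 2.05 ± 0.27. Of 13 genes of cholesterol synthesis and transport 2 rose and 0 fell, a count near the 7.47% rising over all genes. Ch25h, which makes 25-hydroxycholesterol, was not detected on any sham array (4.56, 4.59, 4.93 and 4.43) and read 4.76, 8.83 and 9.50 in KA, at least 9.67-fold higher (limma adjusted p = 3.13e-09). Apoe, the main lipid carrier of the brain, rose by 0.86 ± 0.17 on all 8 KA arrays. The other 11 genes of that list, which include the enzymes of synthesis, did not pass the test, and the median of the list was -0.13.

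The IL-6 family signals through STAT3, which drives the reactive state of astrocytes. Of 10 genes of this pathway 5 rose and 0 fell (median 0.54, 0.33 with bounds). Osm, the ligand oncostatin M, was not detected on any sham array and was at least 1.38-fold higher in KA (limma adjusted p = 0.000323; means 5.55 and 4.64); another probe of the gene had the opposite sign. Its receptor Osmr read 6.16, 6.38, 5.99 and 6.14 in sham and 6.39, 8.56 and 9.63 in KA, a difference of 2.31 ± 0.33. Stat3 rose by 1.08 ± 0.31 and Socs3, its inhibitor and target, by 2.42 ± 0.36. The 5 genes that rose held the ligand, the receptor, the transducer, the target and Bcl3, a co-regulator of NF-kappa B, and KA 4 held the highest KA value of Osm, Osmr and Socs3.

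Reactive astrocyte genes rose in 13 of 18 tested and fell in 0, with and without KA 8 (median 1.94). Serpina3n, a secreted protease inhibitor of the acute phase, read 10.46, 10.86, 9.95 and 10.22 in sham and 10.88, 13.42 and 13.84 in KA, a difference of 2.75 ± 0.35. KA 8 barely exceeded the highest sham value. Tgm1, a transglutaminase that crosslinks proteins, was not detected on any sham array (4.54, 4.53, 4.57 and 4.70) and read 4.65, 7.69 and 8.63 in KA, at least 5.01-fold higher (limma adjusted p = 6.2e-09). Lcn2, lipocalin 2, read 4.51, 4.66, 4.77 and 4.77 in sham, 4.58 on KA 8, from 9.28 upward on the other KA arrays and 12.51 on KA 4. Vim, the filament protein vimentin, rose by 2.43 ± 0.35. Of 15 homeostatic astrocyte genes 3 rose and 0 fell (4 rose without KA 8, 1 with median scaling; median 0.33). Slc1a2, the glutamate transporter GLT-1, rose by 0.80 ± 0.14 and Aldh1l1, a folate enzyme used as an astrocyte marker, by 0.75 ± 0.21; neither passed the threshold with median scaling, and Aldh1l1 has another probe of opposite sign.

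Matrix genes rose in part. Of 19 collagens, laminins and matrix proteases 8 rose and 0 fell (10 without KA 8; median 0.54). Bgn, the proteoglycan biglycan, read 9.73, 9.58, 9.28 and 9.05 in sham and 9.67, 11.40 and 12.03 in KA, a difference of 1.86 ± 0.26. Sparc, a collagen-binding protein, rose by 1.53 ± 0.42 and Mmp2, a gelatinase, by 1.23 ± 0.30. Of 17 S100 and annexin genes, which encode calcium-binding proteins, 8 rose and 0 fell (9 rose without KA 8; median 0.61, 0.57 with bounds), with Anxa3 at 1.52 ± 0.19, S100a11 at 1.65 ± 0.23 and Anxa2 at 1.55 ± 0.21.

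The proteoglycans of perineuronal nets, the matrix coats of fast-firing interneurons, went both ways: of 8 genes 2 rose and 1 fell. Acan, the core protein aggrecan, was not detected on any sham array (4.84, 4.79, 4.84 and 4.68) and read 5.28, 6.42 and 7.36 in KA. All 8 KA arrays were above every sham array, KA 8 the lowest of them, and the gene was at least 2.51-fold higher (limma adjusted p = 3.55e-07). Hapln4, a link protein of the nets, read 10.20, 10.28, 10.21 and 10.06 in sham and 9.39, 9.65 and 9.94 in KA, below every sham array on all 8, and changed by -0.55 ± 0.17 (limma adjusted p = 0.0278). Its call was lost with median scaling, with the replicate number as a block and without any of 6 single arrays.

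**Figure D2:**
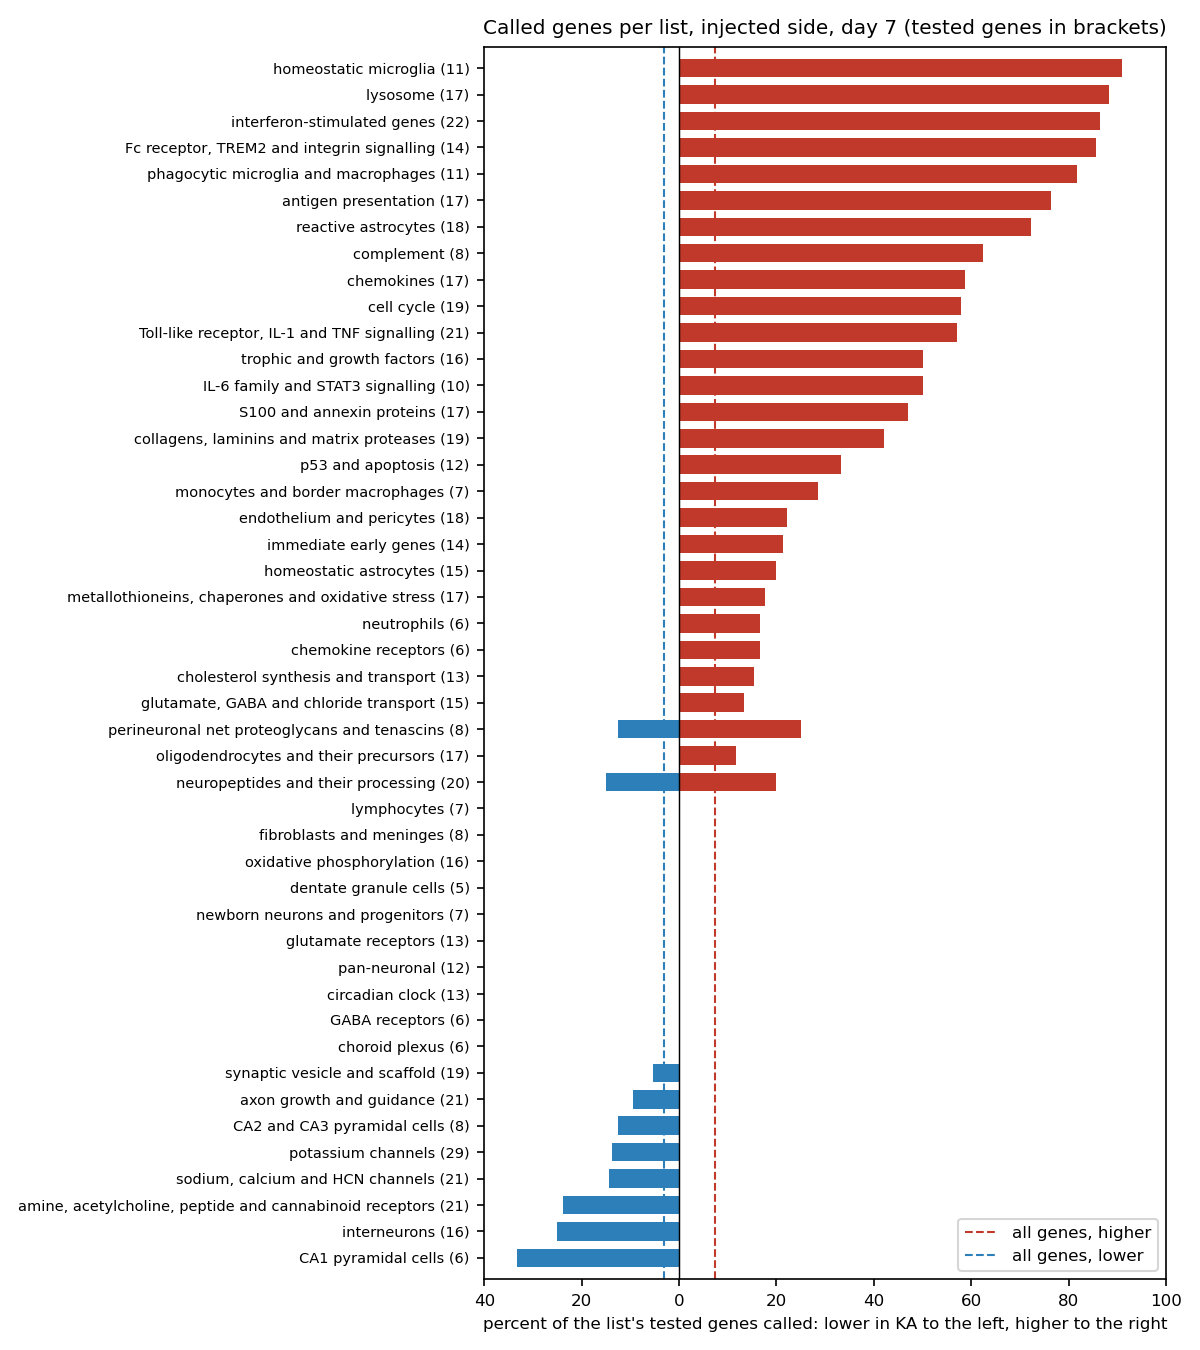
Percent of the tested genes of each list (number in brackets) that rose (red, to the right) or fell (blue, to the left) on the injected side at day 7, with dashed lines at the shares over all genes, 7.47% and 3.03%. The lists of microglia, interferon and lysosome genes reach furthest to the right, and lists of neurons and channels lie on the left.

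Genes of dividing cells rose in 11 of 19 tested and fell in 0 (12 rose without KA 8; median 0.60, 0.57 with bounds). Cdk1, the kinase that starts mitosis, was not detected on any sham array (4.48, 4.63, 4.38 and 4.61) and read 4.64, 6.41 and 6.81 in KA. KA 8, the lowest, lay barely above the highest sham array, and the other 7 at 5.78 or more. Cdc20, the activator of the anaphase-promoting complex, read 5.39, 5.16, 4.75 and 5.09 in sham and 5.67, 6.51 and 7.08 in KA, a difference of 1.39 ± 0.17 (limma adjusted p = 4.25e-09), and Cenpa, the centromeric histone, rose by 1.06 ± 0.23. Genes of cell cycle arrest and death were in part higher: of 12 genes of p53 and apoptosis 4 rose and 0 fell. Cdkn1a, the cell cycle inhibitor p21, read 7.11, 7.06, 7.57 and 7.24 in sham and 6.99, 8.81 and 10.62 in KA; KA 4 was the highest and KA 8 lay below every sham array. Its difference was 1.54 ± 0.38, and Fas, a death receptor, and Casp8, the caspase it activates, rose by 1.48 ± 0.29 and 1.15 ± 0.22. Of 17 stress genes 3 rose and 0 fell, beside 7.47% rising over all genes, and 4 rose and 1 fell without KA 8. The 3 were Mt2, a metallothionein (1.36 ± 0.27), Hspb1, a small heat shock protein (1.33 ± 0.33), and Atf3, a transcription factor of injured cells, which was not detected on any sham array and at least 1.52-fold higher (limma adjusted p = 0.000205).

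Among the peptides of neurons, Cartpt and Trh differed widely between KA arrays. Of 20 neuropeptide genes 4 rose and 3 fell, and the median was -0.02. Cartpt, the precursor of the CART peptides, read 7.38, 6.75, 7.77 and 7.20 in sham. On KA 1 to KA 8 it read 13.46, 10.68, 13.49, 8.96, 12.04, 12.92, 13.36 and 6.70. Thus 7 KA arrays were above every sham array and KA 8 below all of them, with KA 2 and KA 4 the lowest of the 7, and the difference was 4.18 ± 0.72 (limma adjusted p = 7.88e-06). Trh, thyrotropin-releasing hormone, read 5.17, 4.78, 4.95 and 5.26 in sham and 10.61, 7.49, 10.77, 7.04, 9.48, 10.47, 10.50 and 5.15 on KA 1 to KA 8, a difference of 3.90 ± 0.61. KA 2, KA 4 and KA 8 were the lowest 3 arrays for both genes. Gal, galanin, rose by 1.46 ± 0.48 (limma adjusted p = 0.0379), a call that was lost in several other fits, and Npy, neuropeptide Y, read 11.19 to 12.40 in KA against a highest sham value of 11.64 and did not pass the test (0.41 ± 0.26, limma adjusted p = 0.414).

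Of 16 trophic and growth factors 8 rose and 0 fell (9 without KA 8; median 0.62). Gdnf, the glial cell line-derived factor, was not detected on any sham array (4.67, 4.43, 4.84 and 4.49) and read 7.75, 6.37, 8.15, 5.05, 7.66, 6.23, 7.73 and 4.56 on KA 1 to KA 8. It was at least 3.04-fold higher (limma adjusted p = 2.96e-06), with KA 8 inside the sham range and KA 4 next. Igf1, insulin-like growth factor 1, which activated microglia are known to make, read 5.55, 5.12, 5.70 and 5.83 in sham and 5.85, 7.66 and 8.31 in KA, with no overlap and a difference of 1.99 ± 0.26. Bdnf, the brain-derived neurotrophic factor, read 9.02, 9.18, 9.11 and 9.03 in sham and 11.01, 10.42, 11.20, 8.46, 10.75, 10.71, 11.14 and 9.62 on KA 1 to KA 8. KA 4 was below every sham array and the other 7 above every one, and the difference was 1.33 ± 0.33 (limma adjusted p = 0.00279). Inhba, a chain of activin A, behaved alike on KA 4 (6.21, below the sham range of 6.34 to 6.51) and rose by 1.57 ± 0.46. The calls of Bdnf and Inhba were lost when only the 2 groups compared were fitted.

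Immediate early genes are switched on within minutes of neuronal firing. Of 14 tested 3 rose and 0 fell (4 without KA 8; median 0.40). Fos read 6.06, 7.05, 7.42 and 6.84 in sham and 9.16, 8.94, 9.75, 8.94, 8.66, 9.14, 9.91 and 8.60 on KA 1 to KA 8, so that all 8 KA arrays, KA 8 included, were above every sham array, and the difference was 2.29 ± 0.53 (limma adjusted p = 0.00122). Arc, a protein of active synapses, read 8.81, 9.03, 9.37 and 9.60 in sham and 10.57, 11.23, 10.71, 9.67, 10.27, 10.24, 10.76 and 10.67 on KA 1 to KA 8, again with no overlap, and rose by 1.31 ± 0.41 (limma adjusted p = 0.0248). Npas4, a transcription factor induced by calcium entry, rose by 1.70 ± 0.47, with KA 8 (7.24) below the highest sham value. The call of Arc was lost with median scaling and without sham 1, sham 2 or sham 3, and that of Npas4 without sham 4.

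**Figure D3:**
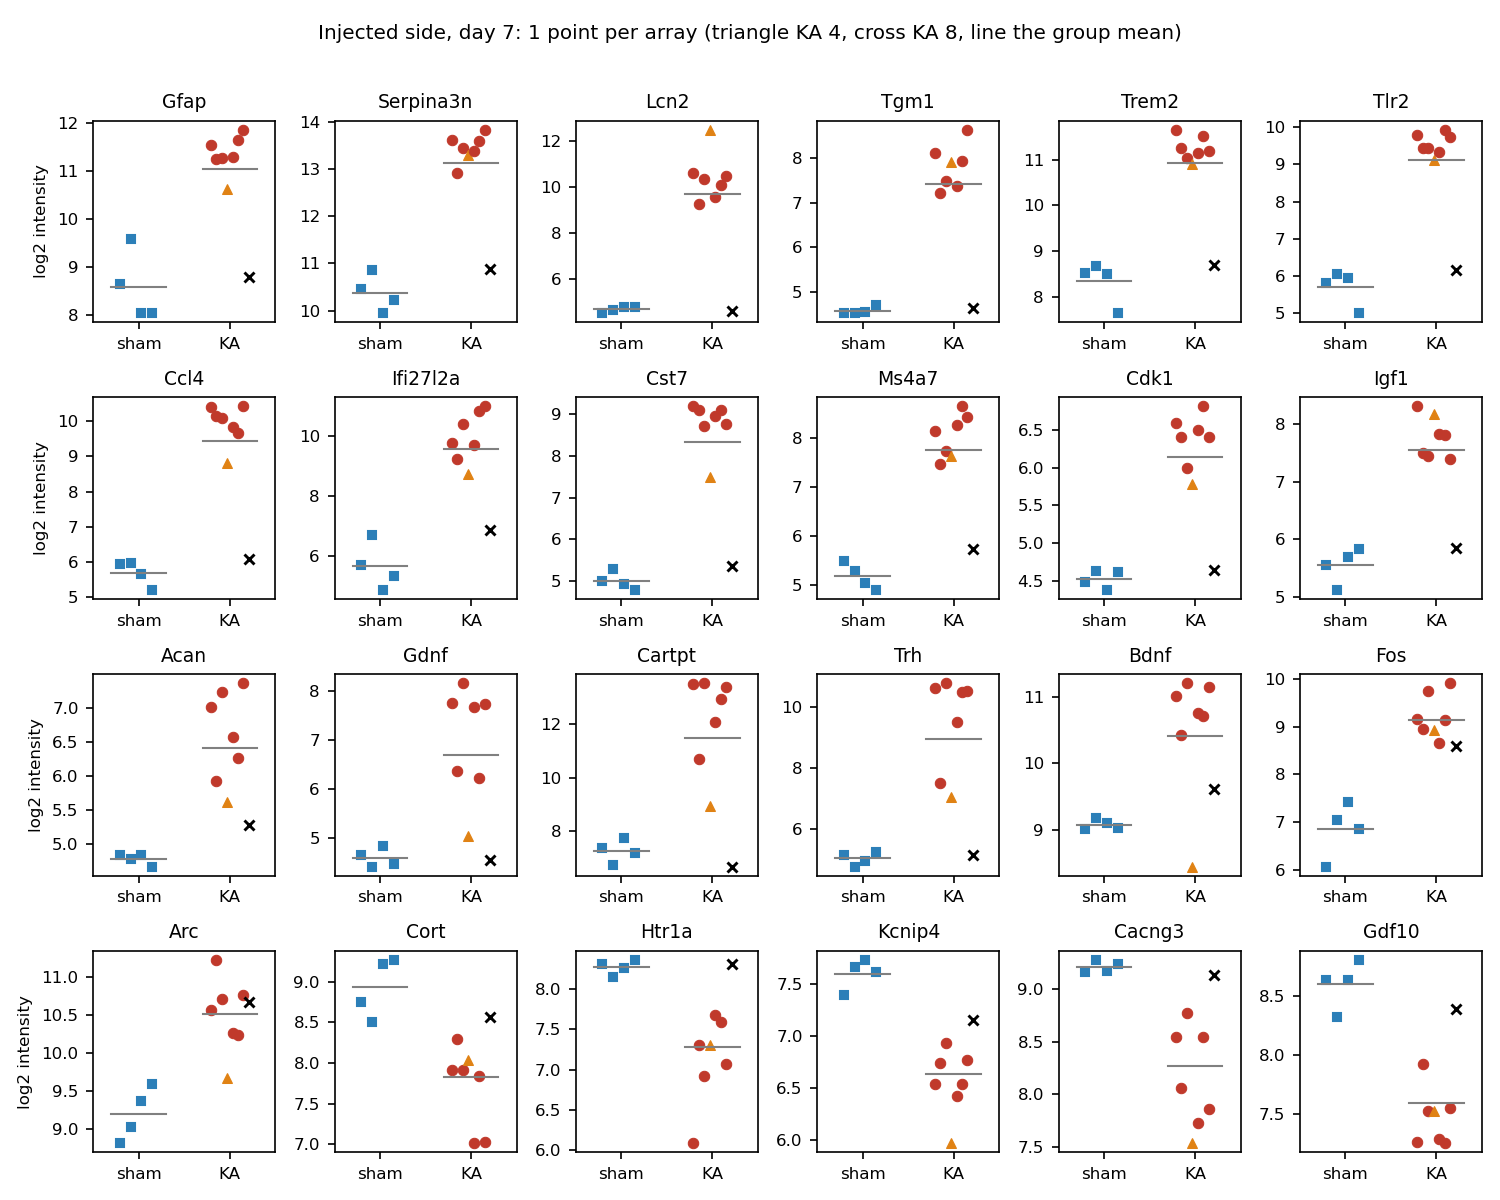
Normalised log2 intensity of 24 genes on each array of the injected side at day 7. Squares are sham arrays, circles KA arrays, the triangle KA 4 and the cross KA 8, and grey lines are group means. KA 8 lies at the level of sham for Gfap (8.79), Trem2 (8.70) and Cartpt (6.70) and with the other KA arrays for Fos (8.60) and Arc (10.67).

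The genes that fell changed by less than those that rose. The 10 with the largest fall on at least 7 of 8 KA arrays were Rerg, Cort, Htr3a, Tafa1, Nectin3, Lefty1, Gdf10, Gpr12, Rapgef6 and Htr1a. Rerg, a small GTPase of the RAS family, read 8.35, 8.82, 8.23 and 8.88 in sham and 6.31, 7.36 and 8.88 in KA, the highest being KA 8, level with the highest sham array; it fell by 1.20 on the log2 scale (SE 0.32, limma adjusted p = 0.00742). Tafa1, a secreted protein of neurons, fell by 1.03 (SE 0.30) and Gdf10, a TGF-beta family ligand, by 1.02 (SE 0.19, limma adjusted p = 3.91e-05). Gdf10 read 8.64, 8.33, 8.64 and 8.81 in sham and 7.25, 7.53 and 8.39 in KA, KA 8 being the highest and the one inside the sham range. Gpr12, an orphan receptor coupled to cyclic AMP, fell by 1.02 (SE 0.23) and Rapgef6, an exchange factor for RAP proteins, by 0.99 (SE 0.22). On KA 8 both were within or above the sham range.

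The lists of pyramidal cells and interneurons held falls and no rise. Of 6 genes of CA1 pyramidal cells 2 fell (3 without KA 8; median -0.50), of 8 of CA2 and CA3 pyramidal cells 1 (median -0.37), and of 16 of interneurons 4 (median -0.41), against 3.03% over all genes. With median scaling 1 CA1 gene, 0 CA2 and CA3 genes and 3 interneuron genes fell. All 6 CA1 genes, 7 of 8 CA2 and CA3 genes and 13 of 16 interneuron genes had a negative difference. Lefty1, a secreted inhibitor of Nodal listed here with CA1, read 8.12, 7.76, 7.80 and 8.33 in sham and 6.35, 6.73 and 8.06 in KA and fell by 1.02 (SE 0.28); Mpped1, a phosphoesterase, was below every sham array on all 8 KA arrays (-0.57 ± 0.17, limma adjusted p = 0.0153). Nectin3, an adhesion protein of CA3 synapses, changed by -1.03 ± 0.30, but another of its probes had the opposite sign and the call was lost with the mean of its probes, with median scaling and without KA 6 or sham 3. Of the interneuron genes, Cort, cortistatin, read 8.75, 8.51, 9.22 and 9.27 in sham and 7.01, 7.92 and 8.57 in KA, KA 8 being the one inside the sham range, and fell by 1.11 (SE 0.23, limma adjusted p = 0.000323). Dlx1, a transcription factor of interneurons from the ganglionic eminence, changed by -0.65 ± 0.21 and was below every sham array on all 8 KA arrays. Sst (-0.57 ± 0.40), Pvalb (-0.48 ± 0.33) and Gad1 (0.02 ± 0.28), which encode somatostatin, parvalbumin and the GABA-making enzyme GAD67, did not pass the test.

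Receptors and channels of neurons fell in small numbers, beside 3.03% falling over all genes. Of 21 receptors for amines, acetylcholine, peptides and cannabinoids 5 fell and 0 rose (median -0.30). Htr1a, an inhibitory serotonin receptor, read 8.31, 8.15, 8.25 and 8.36 in sham and 6.09, 7.31 and 8.30 in KA, where the highest was KA 8 and the only one inside the sham range, and fell by 0.98 (SE 0.25, limma adjusted p = 0.00411). Htr3a, a serotonin-gated channel of interneurons, and Oprl1, the nociceptin receptor, were below every sham array on all 8 KA arrays, KA 8 included (-1.04 ± 0.24 and -0.81 ± 0.19). Of 29 potassium channel genes 4 fell and 0 rose (6 fell without KA 8; median -0.32). Kcnip4, a subunit that tunes A-type channels, read 7.39, 7.66, 7.73 and 7.61 in sham and 5.97, 6.64 and 7.15 in KA, with no overlap (-0.96 ± 0.27, limma adjusted p = 0.00992), and its relative Kcnip2 changed by -0.89 ± 0.23. Of 21 sodium, calcium and HCN channel genes 3 fell and 0 rose (median -0.27). Cacng3, a partner of AMPA receptors, read 9.16, 9.27, 9.17 and 9.24 in sham and 7.54, 8.30 and 9.13 in KA (-0.94 ± 0.22). Scn8a, the sodium channel Nav1.6, changed by -0.51 ± 0.18, and its call was lost in several other fits.

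Lists with no call were read with their unadjusted counts. Of 6 GABA receptor genes 0 passed the limma test and 2 were lower at an unadjusted p under 0.05 (median -0.33, all 6 negative), and of 13 glutamate receptor genes 0 passed and 2 were lower at that level (median -0.14). All 12 pan-neuronal genes had a negative difference (median -0.22, lowest -0.54); 0 passed the limma test and 1 was lower at an unadjusted p under 0.05. All 19 genes of synaptic vesicles and scaffolds were negative as well (median -0.22), and 1 fell, or 2 without KA 8. The count of 1 is near the 3.03% falling over all genes. None of 5 dentate granule cell genes and none of 7 genes of newborn neurons passed the limma test, with 2 higher and 2 lower at an unadjusted p under 0.05; without KA 8, 1 dentate granule cell gene rose. Dcx, doublecortin of migrating neurons, read 7.35 to 7.79 in sham and 6.74 to 7.74 in KA (-0.51 ± 0.21, limma adjusted p = 0.134). Of 16 genes of oxidative phosphorylation 0 passed, 0 had an unadjusted p under 0.05 and the median was -0.07, close to that of all genes.

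Markers of other cell types rose in part, beside 7.47% rising over all genes. Of 17 oligodendrocyte genes 2 rose (1 with median scaling), a count near that share. The 2 were Enpp6, an enzyme of newly formed oligodendrocytes (1.46 ± 0.30), and Trf, the iron carrier transferrin (1.03 ± 0.22). Of 18 genes of endothelium and pericytes 4 rose, among them Icam1 and Vcam1, the adhesion molecules of inflamed vessels (1.74 ± 0.33 and 1.19 ± 0.21). Vwf, von Willebrand factor, read 11.73 on KA 4 and from 8.36 to 9.65 on the other KA arrays, and its call (1.26 ± 0.37) was lost without KA 4, sham 2 or sham 4. Of 7 genes of monocytes and border macrophages 2 rose, Ms4a7 (2.58 ± 0.32) and Ms4a6d (2.62 ± 0.30); Mrc1, F13a1, Pf4, Chil3 and Plac8 did not pass, and 3 rose without KA 8, Chil3 being the gene gained. Of 7 lymphocyte genes 0 passed the limma test and 0 had an unadjusted p under 0.05.

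Of the neutrophil markers, S100a8, S100a9 and Ltf singled out KA 4. Of 6 tested 1 rose, the receptor gene Csf3r (1.48 ± 0.30). Csf3r read 6.20 on KA 4, within the KA range of 5.65 to 7.39. Ngp read 5.73 on KA 4 and 5.51 on KA 2, and Camp 5.14 on KA 4 against a highest sham value of 5.08. S100a8, a chain of the granule protein calprotectin, read 11.04 on KA 4 and from 5.03 to 6.82 on the other KA arrays, against 4.57 to 5.91 in sham, and did not pass the test. On the same array S100a9 read 8.48, Ltf, lactoferrin, 7.29, and Chil3 7.62, all the highest of the 12, while Hba-a1, a haemoglobin chain, was lowest there at 10.05. KA 4 was also the array with the highest Lcn2, Cd14, Cdkn1a and Vwf and with the lowest Bdnf. The mean over the neutrophil list was 2.36 on KA 4 and 2.26 on the other side of its animal, from another slide. The other KA arrays of that side reached at most 0.76. Both arrays of this animal had the highest mean of their side at day 7 over endothelium and pericytes (0.93 and 0.67). Both had the lowest over red blood cells. Over fibroblasts and meninges they were unlike (0.76 and -0.65). The part of neutrophils in the values of this animal was not tested. The 6 choroid plexus genes, which mark a tissue that adjoins the hippocampus, all had a negative difference (median -0.83) and 0 passed or had an unadjusted p under 0.05. Their mean ranged from -2.43 to 1.68 around the sham mean among KA and from -1.46 to 1.24 among sham arrays, and Ttr, transthyretin, read 10.50 to 14.39 and 12.65 to 14.46. The part of choroid plexus tissue in other results was not tested.

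Set against sham arrays of the injected side, the animal of KA 8 was near sham in many glial genes on both sides of the brain. Gfap, the astrocyte filament protein, read 8.79 on its injected side and 8.25 on its other side, against 10.63 to 11.87 on KA 1 to KA 7 and 8.05 to 9.60 in sham. Trem2 read 8.70 and 8.19, Ccl4 6.10 and 5.39, and Usp18, an interferon-induced protease, 6.30 and 6.30. Fos and Arc, in contrast, were high on both sides: Fos read 8.60 and 8.51 and Arc 10.67 and 10.62, above every sham array of the injected side. Among the lists, KA 8 lay between 0.43 and 1.01, the range of the other KA arrays, for immediate early genes (0.54), and within the sham range for phagocytic microglia, complement and reactive astrocytes. Over immediate early genes, the other side of this animal had a mean of 0.39, against at most 0.27 in sham arrays of that side. The other KA arrays of that side ranged from -0.28 to 0.71. In several other lists KA 8 lay above every sham array but below KA 1 to KA 7. Its mean for lysosome genes was 0.31, against at most 0.23 in sham and at least 1.28 on KA 1 to KA 7, and for interferon-stimulated genes 0.28, against 0.20 and 1.41. The lists of homeostatic microglia (0.21), Fc receptor signalling (0.10), chemokines (0.16), Toll-like receptor signalling (0.093) and antigen presentation (0.13) lay likewise between sham and the other KA arrays. On the other side, the animal's mean exceeded every sham array of that side for complement (0.43, highest sham 0.12) and antigen presentation (0.37, 0.097). It was also higher for reactive astrocytes (0.067, -0.13), interferon-stimulated genes (0.20, -0.034), phagocytic microglia, lysosome genes and Fc receptor signalling. For chemokines (-0.026) and Toll-like receptor signalling (-0.058) it lay within the range of those sham arrays, and for homeostatic microglia (-0.24) below it. Neuronal lists of this animal were mixed. Over CA1 pyramidal cell genes its mean was 0.051 on KA 8 and -0.73 on the other side, below every other day 7 array of that side. Over CA2 and CA3 genes the means were 0.15 and 0.079, and over pan-neuronal genes 0.12 and 0.016.

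**Figure D4:**
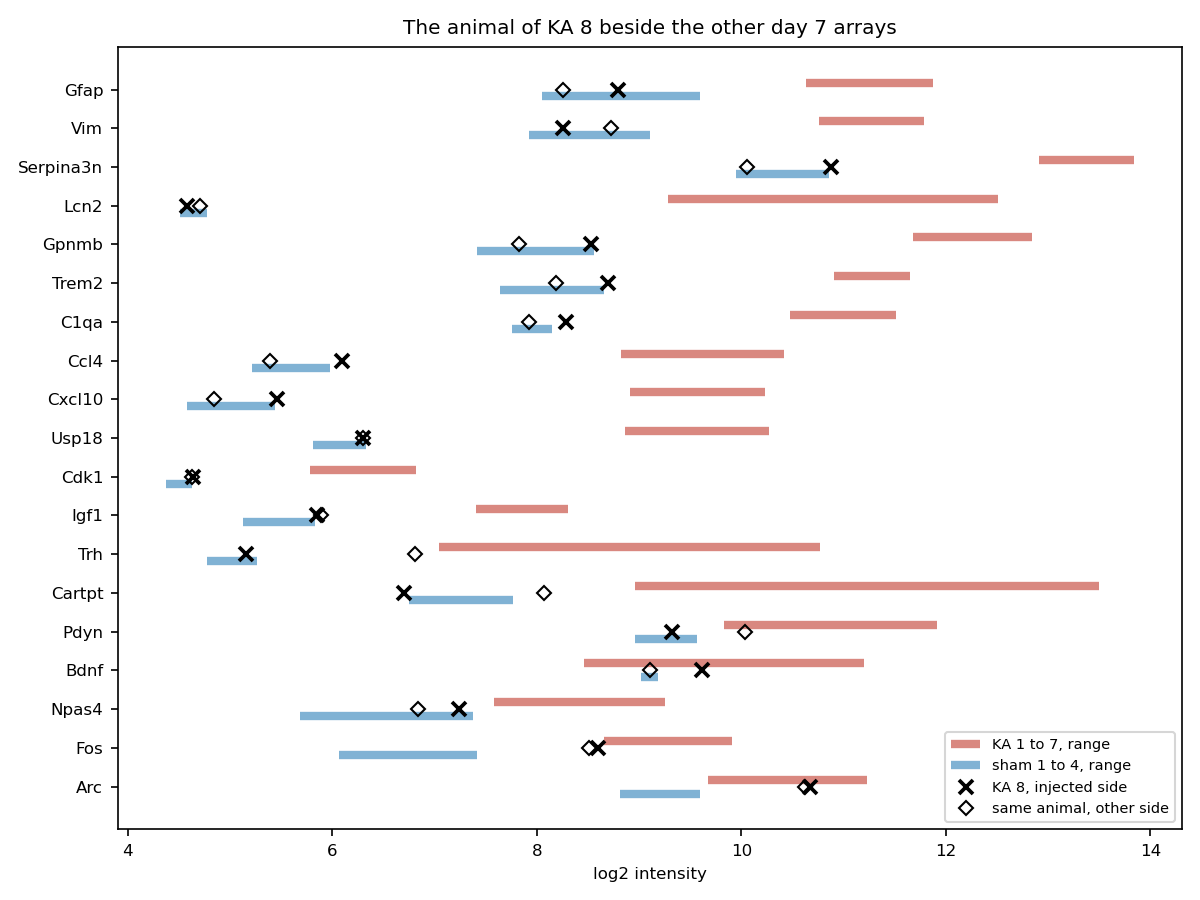
Normalised log2 intensity of 19 genes at day 7: the red bar spans KA 1 to 7 and the blue bar sham 1 to 4, all of the injected side, the cross is KA 8 and the open diamond the other side of the same animal. Cross and diamond lie at or near the blue bar for glial genes such as Gfap (8.79 and 8.25) and at the red bar for Arc (10.67 and 10.62).

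Over all genes, leaving out KA 8 lost 4 calls and gained 300. Few of these are among the genes named here, because the naming rule took at most 5 of each kind. The 4 genes that lost their call were Mecom, Osbpl10, Nsdhl and Slc16a11. Their limma adjusted p lay between 0.043 and 0.0493 with all arrays and between 0.0534 and 0.0608 without KA 8. The 5 with the lowest adjusted p among the 300 gained were Mcm2, a DNA replication helicase, S100a16, Krt222, Mtmr11 and Serpini1, the neuronal protease inhibitor neuroserpin. Mcm2 went from 0.60 ± 0.21 (limma adjusted p = 0.053) to 0.74 ± 0.20 (0.00614), and Serpini1 from -0.71 ± 0.26 (0.0597) to -0.88 ± 0.25 (0.00765). The median over the phagocytic microglia list went from 2.09 to 2.31 and that over potassium channels from -0.32 to -0.34.

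The injected side was set against the other side of the same animals. On the other side 170 genes rose (1.49%) and 5 fell (0.0439%). The difference between the sides, tested as an interaction in limma, passed for 3 of 11381 genes (0.0264%), Acan, Cdc20 and Phf11a (the last chosen after its value was seen), and for 511 genes at an unadjusted p under 0.05. Without KA 8 it passed for 91 genes, without KA 4 for 7 and without sham 4 for 1. With only the groups compared and with a stricter filter on dim probes limma called 0 genes, with 753 and 330 at an unadjusted p under 0.05. With the replicate block 1 gene passed, Acan. Acan changed by -0.19 ± 0.24 on the other side and differed between the sides by 1.81 ± 0.33 (limma adjusted p = 0.00592). Cdc20 changed by 0.23 ± 0.17 there and differed by 1.15 ± 0.23 (limma adjusted p = 0.0204), and Phf11a, a nuclear PHD-finger protein, by 1.37 ± 0.27 (limma adjusted p = 0.0137). Cartpt differed by 4.23 ± 0.97 and Trh by 3.03 ± 0.83, and neither passed with all arrays (limma adjusted p = 0.0729 and 0.29).

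Without both arrays of the animal of KA 8 the side difference passed for 63 genes (0.554%), all larger on the injected side, an alternative added after the data were seen. Of the genes named here 20 were among them. They included genes of peptides and growth factors (Cartpt 5.002 ± 0.87, Trh 3.71 ± 0.75, Gdnf 2.26 ± 0.42, Igf1 1.71 ± 0.31) and of dividing cells (Cdk1 1.61 ± 0.28, Birc5 1.14 ± 0.29). Genes of matrix (Tnc 1.59 ± 0.37, Bgn 1.42 ± 0.31) and of macrophages or microglia (Ms4a7 2.24 ± 0.39, Gpnmb 2.22 ± 0.51) were there too. Glial and lysosomal genes were also among the 20 (Tgm1, 2.09 ± 0.40; Grn, 1.06 ± 0.22; Gusb, 1.22 ± 0.30). With all arrays, for Gfap (2.45 ± 0.38 and 2.01 ± 0.38 on the injected and other side) and C4b (2.31 ± 0.33 and 1.95 ± 0.33) the difference between the sides did not pass (0.45 ± 0.51 and 0.36 ± 0.45), nor did it without the animal (0.49 ± 0.44 and 0.40 ± 0.40).

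**Figure D5:**
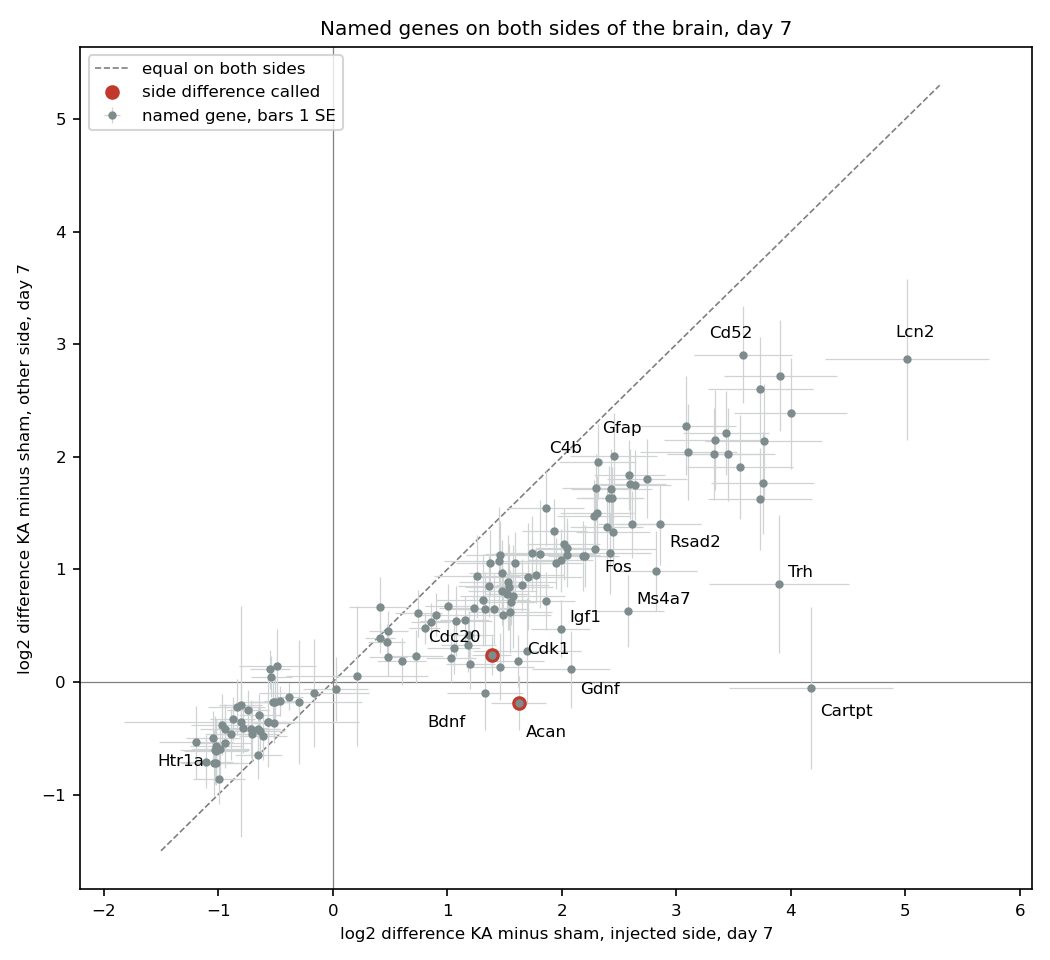
Log2 difference, KA minus sham, at day 7 on the injected side (x axis) and on the other side (y axis) for the genes chosen by the naming rule, bars 1 SE. The dashed line marks equal differences, and red points are the genes whose side difference passed. Cd52 and C4b lie near the line, while Cartpt, Gdnf, Acan and Cdk1 lie near 0 on the other side.

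Day 7 was set against day 28 on the injected side, in other animals. The difference between the days passed for 30 of 11381 genes (0.264%), with 20 larger and 10 smaller at day 7, and without KA 8 for 178. It passed for 14 without KA 1, and for 9, 13 and 11 without sham 1, sham 3 and sham 4. With only the groups compared 3 genes passed, of which Wfdc18 is named below, and with slide as a block 5, of which Ms4a7, Nusap1 and Wfdc18 are named below. All 20 genes with a larger difference at day 7 had risen at day 7. They held genes of dividing cells, namely Cdk1 (1.62 ± 0.23 at day 7 and 0.20 ± 0.21 at day 28, limma adjusted p of the difference = 0.0212), Cdc20, Plk1, Nusap1 and Uhrf1. They also held genes of macrophages or microglia, namely Ms4a7 (2.58 ± 0.32 and 0.53 ± 0.29, limma adjusted p = 0.0165), Adgre1, Stab1 and Itgam. Those outside the naming rule were chosen after their values were seen. Of the 7 genes of monocytes and border macrophages tested, 1 passed for the days, Ms4a7. With the deposited log2 values the day differences of Cdk1, Plk1 and Itgam did not pass, and with the stricter filter on dim probes that of Cdk1 did not. Nusap1, a spindle protein, had 0.94 ± 0.15 at day 7 and -0.18 ± 0.14 at day 28. Of the 10 genes with a smaller difference at day 7, 5 had fallen at day 7, among them Dync1i1, a dynein chain of neurons (-0.93 ± 0.16 and 0.01 ± 0.14), and Ccn5, a matrix protein, rose at day 7 and was higher still at day 28. Wfdc18, another of these 10, had the lowest limma adjusted p of the 30, 0.00065, and was chosen after its value was seen. Its KA effect was 0.0006 ± 0.33 at day 7 and 2.67 ± 0.30 at day 28. For Gfap (2.45 ± 0.38 and 2.45 ± 0.34), Trem2 (2.59 ± 0.31 and 2.06 ± 0.28) and Cartpt (4.18 ± 0.72 and 5.39 ± 0.65) the difference between the days did not pass.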

How the data were processed

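RNA of the whole hippocampus was hybridised to Illumina BeadChips. The authors deposited non-normalised bead intensities, each with a detection p-value, and a table of normalised log2 values. The submitters' processing notes name BeadStudio, GenomeStudio and Partek; their versions and roles are not given in the sources. The deposited intensities fill 25697 data lines, of which 21244 were used. The other 4453 repeat probes under columns that mostly match other arrays and were left out. The detection column of 1 array, displaced by 1 line, was moved back.

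Intensities of all 80 arrays were background-corrected and quantile-normalised with neqc (limma 3.58.1, offset 16, R 4.3.3). Probes with a detection p under 0.05 on at least 4 arrays were kept (16646), and the brightest probe stood for each of 11381 genes. One limma model over all groups took the animal, as the labels give it, as a random block (correlation 0.0787), and p-values from eBayes were adjusted over all genes (Benjamini-Hochberg, threshold 0.05). Where a gene was not detected on any sham array, "at least N-fold" compares the KA mean with the mean, over sham arrays, of the higher of the lowest detected signal and the probe's own signal. Named genes were the 10 largest rises and falls, up to 4 called members of each list, a fixed set of markers and genes called only with or only without KA 8. The members and lists were chosen with earlier results of these data known. Alternatives were the deposited log2 values, no background correction, median scaling, other probe filters, the mean of probes, no animal block, a replicate block, slide as a block, only the groups compared and each array left out. Of 7 slides 3 hold both groups, and every named gene that passed had the same sign within all 3. Each of these slides holds 1 sham array, and the genes were called on these same arrays, so this is not a separate check. The spread behind the p-values was estimated over the animals of all 12 groups of the series, not from the 2 groups compared alone. The precision of the p-values is limited by how many arrays there are.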

Additional observations from a re-analysis of the deposited data

Results flagged for a closer look

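KA 8 lay far from the other 7 KA arrays, by Dixon's criterion for 1 outlying value in a group of 8, in 46 of the genes named. It was the lowest array in 45 of them. Many named genes were picked for a large difference on at least 7 of 8 KA arrays. Others, such as Mcm2 and Mtmr11, were picked because their call changed without KA 8. This count therefore describes the genes named and does not test whether KA 8 stands apart. Its log2 intensity among genes of microglia and macrophages was 8.53 for Gpnmb, 7.70 for Cd52, 8.16 for Lyz2, 5.36 for Cst7, 6.47 for Fcgr2b, 8.70 for Trem2, 6.73 for Ptpn6, 9.89 for Fcer1g, 6.30 for Ms4a6d and 5.72 for Ms4a7. Among complement, chemokine and receptor genes it was 8.29 for C1qa, 10.71 for C1qb, 10.10 for C1qc, 9.53 for C4b, 5.14 for Ccl3, 6.10 for Ccl4, 5.46 for Cxcl10, 6.16 for Tlr2 and 4.71 for Tlr13. For interferon, antigen presentation and lysosome genes it was 6.30 for Usp18, 6.05 for Rsad2, 6.83 for Cd86, 8.63 for Gusb, 8.90 for Ctsh, 9.94 for Grn and 4.76 for Ch25h. Among genes of reactive astrocytes and the IL-6 pathway it was 8.79 for Gfap, 8.26 for Vim, 4.58 for Lcn2, 5.03 for Timp1, 10.88 for Serpina3n, 4.65 for Tgm1, 5.68 for Socs3 and 6.39 for Osmr. In matrix, calcium-binding and vessel genes it was 9.67 for Bgn, 11.22 for Sparc, 6.24 for Mmp2, 9.15 for S100a11, 9.68 for Anxa2, 9.57 for Anxa3 and 9.05 for Vcam1. The remaining genes with KA 8 lowest gave 5.85 for Igf1, 7.30 for Enpp6, 4.98 for Mcm2 and 6.27 for Mtmr11. KA 8 was the highest array for Chgb, chromogranin B, at 12.09.

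KA 4 was the highest KA array, far from the rest, with 11.73 for Vwf and 10.53 for Esam, and the lowest with 10.05 for Hba-a1 and 6.04 for Nsdhl. KA 1 was the lowest with 7.37 for Dlx1, and KA 6 with 6.90 for Slit2. Among the 4 sham arrays, sham 4 was far below the others with 6.49 for Cd52, 5.83 for Fcgr2b, 7.64 for Trem2, 7.76 for C1qa and 9.59 for C1qc, and sham 2 far above them with 9.66 for S100a6. Chance alone marks about 1 in 20 groups in this way when genes are not chosen by these values, as many were here.

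The KA effect differed between the sides or the days, by the interaction test in limma, for 4 of the named genes. The KA effect on Acan was 1.81 and that on Cdc20 1.15 log2 units larger on the injected than on the other side at day 7. On the injected side, the KA effect was larger at day 7 than at day 28 by 1.42 for Cdk1, 1.05 for Cdc20 and 2.04 for Ms4a7.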

How the results depend on the processing

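Of the named genes that passed the test, 90 passed under every alternative, 35 missed the threshold under at least 1 and 0 changed sign. Median scaling lost 16 of them, slide as a fixed block 4 (Gal, Osbpl10, Scn8a, Slc16a11) and leaving out single arrays 28. The count of 1195 genes became 779 with median scaling, and between 835 (without sham 4) and 1491 (without KA 8) with 1 array left out. Without KA 8, leaving out a further array gave 1144 to 1491 genes. With the replicate block 1161 genes passed (873 higher, 288 lower). Same-numbered arrays did not deviate together, with correlations of 0.301, -0.475, -0.0497 and -0.076, so the numbers do not pair the samples.

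The 3 genes that differed between the sides became 9 with median scaling, 0 with a stricter filter, 1 with the replicate block, 11 with slide as a block, 0 with only the groups compared, 1 to 91 with 1 array left out (91 without KA 8) and 63 without both arrays of its animal. The 30 that differed between the days became 18, 13 with the stricter filter, 54 with the mean of probes, 5 with slide as a block, 3 with only the groups compared, 9 to 178 with 1 array left out (178 without KA 8) and 203 without both arrays of its animal. The causes were not tested.

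The only named genes that changed sign in these fits had not passed. Gad1, at 0.02, went to -0.093 with median scaling, -0.0076 with the mean of probes, -0.0041 with the replicate block, -0.011 with slide as a block, -0.026 without both arrays of the animal of KA 8, and from -0.071 (without sham 1) to 0.15 (without sham 2) with 1 array left out. Mbp went to -0.0029 with the mean of probes and -0.0040 with the replicate block. Hba-a1 ranged from -0.35 (without KA 1) to 0.17 (without KA 4). Of the gene lists, the median of fibroblasts and meninges changed sign between scalings. With 4 sham arrays and 1 array that decides many counts, small differences of dim genes are the least certain.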
